A study of Mus musculus with 15 samples.

Results

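Xcl1, Ccl3, Ccl4 and Ccl5 are chemokine genes that invariant NKT (iNKT) cells transcribe, and their levels were followed across 5 groups of sorted mouse thymic cells. The 4 genes, of 16593 gene symbols on the array, were chosen by symbol from measured values of these arrays: Xcl1 and Ccl4 moved in opposite ways between iNKT cells without Dicer and mature wild-type iNKT cells. The array has 5 probes for them among 25697, 1 each for Xcl1, Ccl3 and Ccl5 and 2 for Ccl4, and all 4 genes passed the filter on detection. The levels in that choosing contrast are therefore given as a description with no test.

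Total RNA was profiled on 15 Illumina mouse bead arrays with 1 label (biotin), 3 for each group, with RNA from thymi of mice aged 4 weeks. Every mouse carried floxed Dicer alleles (Dicer lox/lox), so the wild-type (WT) controls were Dicer lox/lox CD4-Cre -/- and the knock-outs (KO) were Dicer lox/lox CD4-Cre +/-. Dicer makes mature microRNAs, and a Cre driven by CD4 acts from the CD4-expressing thymocyte onwards, in conventional T cells and iNKT cells alike. The iNKT cells, which recognise lipid on CD1d, were sorted as HSA low, TCRβ int and CD1d tetramer +. WT iNKT cells were further split into stage 1-2 (NK1.1 -, CD44 high/low) and mature stage 3 (NK1.1 +, CD44 high), whereas KO iNKT cells were left unsplit. Conventional T cells, WT and KO, were HSA low, TCRβ + and CD1d tetramer -. The labels call the arrays replicates but name no separate animals, so the errors and p-values measure the spread between these arrays, which may be technical.

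Chemokines are small secreted proteins that recruit cells through G protein-coupled receptors. XCL1 (lymphotactin) binds XCR1 on cross-presenting dendritic cells, and in the thymic medulla it is known to help place dendritic cells. CCL3 and CCL4 are the macrophage inflammatory proteins 1α and 1β, CCL5 is also called RANTES, and CCL3 and CCL5 bind CCR1. Activated T and NK cells make all of them, and so do other leukocytes: CCL3 and CCL4 are also products of macrophages, dendritic cells and neutrophils. Ccl3, Ccl4 and Ccl5 lie in a cluster of CC chemokine genes on chromosome 11, in which a RefSeq gene table (GRCm38.p6) places 9 genes from Ccl5 to Ccl4, 5 of them protein-coding in the order Ccl5, Ccl9, Ccl6, Ccl3 and Ccl4. Xcl1 lies apart, on chromosome 1.

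Promoter sequence was at hand for 2 of the 4 genes, Xcl1 and Ccl3, which stand for the opposite patterns of level that the arrays showed. The 250 bases before each RefSeq gene start (GRCm38.p6) are printed 5′ to 3′ on the gene's own strand, with motif matches in capitals. Xcl1 is at chr1:164935523-164935772 on the minus strand and Ccl3 at chr11:83649379-83649628 on the minus strand. Promoters of Ccl4 and Ccl5 are not shown.
Xcl1 promoter: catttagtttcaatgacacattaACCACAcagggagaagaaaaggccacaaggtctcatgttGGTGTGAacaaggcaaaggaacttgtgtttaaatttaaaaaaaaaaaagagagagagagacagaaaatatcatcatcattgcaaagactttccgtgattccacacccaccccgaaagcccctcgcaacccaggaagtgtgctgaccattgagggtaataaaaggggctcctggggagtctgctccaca
Ccl3 promoter: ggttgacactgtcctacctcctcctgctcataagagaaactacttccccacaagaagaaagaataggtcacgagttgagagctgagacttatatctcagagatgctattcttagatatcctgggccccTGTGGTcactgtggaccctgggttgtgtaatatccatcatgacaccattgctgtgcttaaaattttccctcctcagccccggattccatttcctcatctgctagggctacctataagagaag
Both strands were searched for AP-1 (TGANTCA), T-box (GGTGTGA), RUNX (TGTGGT), NF-kB (by name) and TATA box (TATAAA) motifs. The capitals in Xcl1 are a T-box match from 188 to 182 bases before the start and a RUNX match on the opposite strand (ACCACA) from 227 to 222 bases before it, and the capitals in Ccl3 are a RUNX match from 122 to 117 bases before the start. The Ccl3 window held no T-box letters, and neither window held those of AP-1, NF-kB or the TATA box. Among 32851 promoter windows of the same length, 3.33% held the T-box letters, 14% RUNX, 6.75% AP-1, 7.25% NF-kB and 12.4% the TATA box. A match describes the letters only. T-box and RUNX factors are named for their DNA-binding domains; the levels of Tbx21 (T-bet) and Runx1 are given with the other regulators.

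Median probe signal was 88.3 to 124 per array and 29.2% to 40.8% of probes were detected (detection p under 0.05). Correlations between arrays of a group were 0.940 to 0.985. Levels are given as log2 intensities after background correction and quantile normalization, on which an undetected probe sits near 4.4, and probes of different genes cannot be ranked against each other. Dicer1 stood at 6.33 ± 0.14 in KO iNKT cells (SD, n = 3), 6.25 ± 0.33 in WT stage 1-2, 7.18 ± 0.50 in WT stage 3, 6.44 ± 0.15 in WT T cells and 6.38 ± 0.25 in their KO counterparts. Whether its probe lies in the deleted part is not given in the sources used here, so this level does not check the genotype labels. The T cell marker Cd3e was detected on every array. Its means were 10.31 (KO iNKT), 10.73 (stage 1-2), 11.68 (stage 3), 11.66 (WT T) and 11.49 (KO T). A T cell list (7 of 8 genes tested) had array means of 9.34 to 9.89, 9.87 to 10.53 and 10.68 to 10.81 in those iNKT groups. For conventional T cells they were 11.03 to 11.24. Among iNKT arrays the list was thus highest in stage 3, where Ccl3 and Ccl4 were lowest. The cause of this difference was not tested. Klrb1c, which encodes the NK1.1 used in the sort, stood at 8.46 in WT stage 3 cells and at 4.33 to 4.98 elsewhere.

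Xcl1 was high in 1 group. On replicates 1, 2 and 3 the WT stage 3 group read 11.23, 10.71 and 10.27, WT stage 1-2 read 5.68, 5.93 and 6.77, and KO iNKT read 6.99, 7.17 and 5.98 (log2 intensity). WT T cells read 6.73, 5.76 and 7.01 and KO T cells read 6.26, 6.34 and 5.28, and every one of the 15 arrays detected the probe. All 3 stage 3 arrays lay far above the 12 other arrays, which overlapped one another. In order, the means were 10.74 ± 0.48 (SD, n = 3) for WT stage 3, 6.71 ± 0.64 for KO iNKT, 6.50 ± 0.65 for WT T, 6.12 ± 0.57 for WT stage 1-2 and 5.96 ± 0.59 for KO T, and only the step below stage 3 separated neighbours.

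Ccl5 had the same high group and a wider spread elsewhere. Its log2 intensity was 10.26, 9.33 and 9.57 on the stage 3 arrays, 7.57, 8.15 and 5.87 on the KO iNKT arrays and 5.18, 6.12 and 8.12 on the stage 1-2 arrays. WT T arrays read 6.95, 4.91 and 6.46, and KO T arrays 5.78, 6.26 and 4.5. The stage 3 arrays were again above every other array, and the 4 lower groups overlapped. The means ran from 9.72 ± 0.48 in WT stage 3 to 7.20 ± 1.19 in KO iNKT, 6.47 ± 1.5 in WT stage 1-2, 6.11 ± 1.07 in WT T cells and 5.51 ± 0.91 in KO ones (SD, n = 3). Ccl5 was not detected on stage 1-2 replicate 1, WT T replicate 2 and KO T replicate 3.

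Ccl4 was lowest, not highest, in stage 3 among the iNKT groups. Its brighter probe (ILMN_1223257) read 11.79, 12.13 and 11.72 on the KO iNKT arrays, 10.98, 10.63 and 11.24 on the stage 1-2 arrays and 8.60, 8.41 and 8.88 on the stage 3 arrays. T cells read 6.93, 6.38 and 5.91 (KO) and 5.86, 5.95 and 6.36 (WT). Each iNKT group lay wholly above the next, and stage 3, the lowest of them, lay above all 6 T cell arrays, whose groups overlapped. The means were 11.88 ± 0.22 in KO iNKT, 10.95 ± 0.30 in WT stage 1-2, 8.63 ± 0.24 in WT stage 3, 6.41 ± 0.51 in KO T and 6.06 ± 0.27 in WT T cells (SD, n = 3).

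The dimmer Ccl4 probe (ILMN_1224472) gave the same order of the iNKT groups at lower levels. Its means were 9.80 ± 0.50 for KO iNKT, 8.81 ± 0.74 for WT stage 1-2, 6.72 ± 0.55 for WT stage 3, 5.42 ± 0.21 for WT T and 5.35 ± 0.24 for KO T (SD, n = 3). On this probe KO iNKT (9.5 to 10.38) and stage 1-2 cells (8.09 to 9.57) overlapped, unlike on the brighter probe.

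Ccl3, the neighbour of Ccl4 on chromosome 11, was also high in the KO iNKT and stage 1-2 groups. The KO iNKT arrays read 8.53, 8.71 and 8.33, the stage 1-2 arrays 7.75, 7.09 and 9.02 and the stage 3 arrays 5.74, 4.57 and 6.93. KO iNKT and stage 1-2 arrays overlapped, and all of them lay above the stage 3 arrays. The T cell arrays stood at 4.42, 4.58 and 4.33 (WT) and 4.51, 4.54 and 4.31 (KO), and the probe was detected on none of the 6. Stage 3 replicate 2 was not detected either and lay among the T cell arrays, while the other two stage 3 arrays lay above them. The means were 8.53 ± 0.19, 7.95 ± 0.98, 5.75 ± 1.18, 4.45 ± 0.13 and 4.44 ± 0.13 (SD, n = 3) in KO iNKT, WT stage 1-2, WT stage 3, KO T and WT T cells. On stage 1-2 replicate 3 all 4 chemokine genes were at the highest level of that group.

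**Figure D1:**
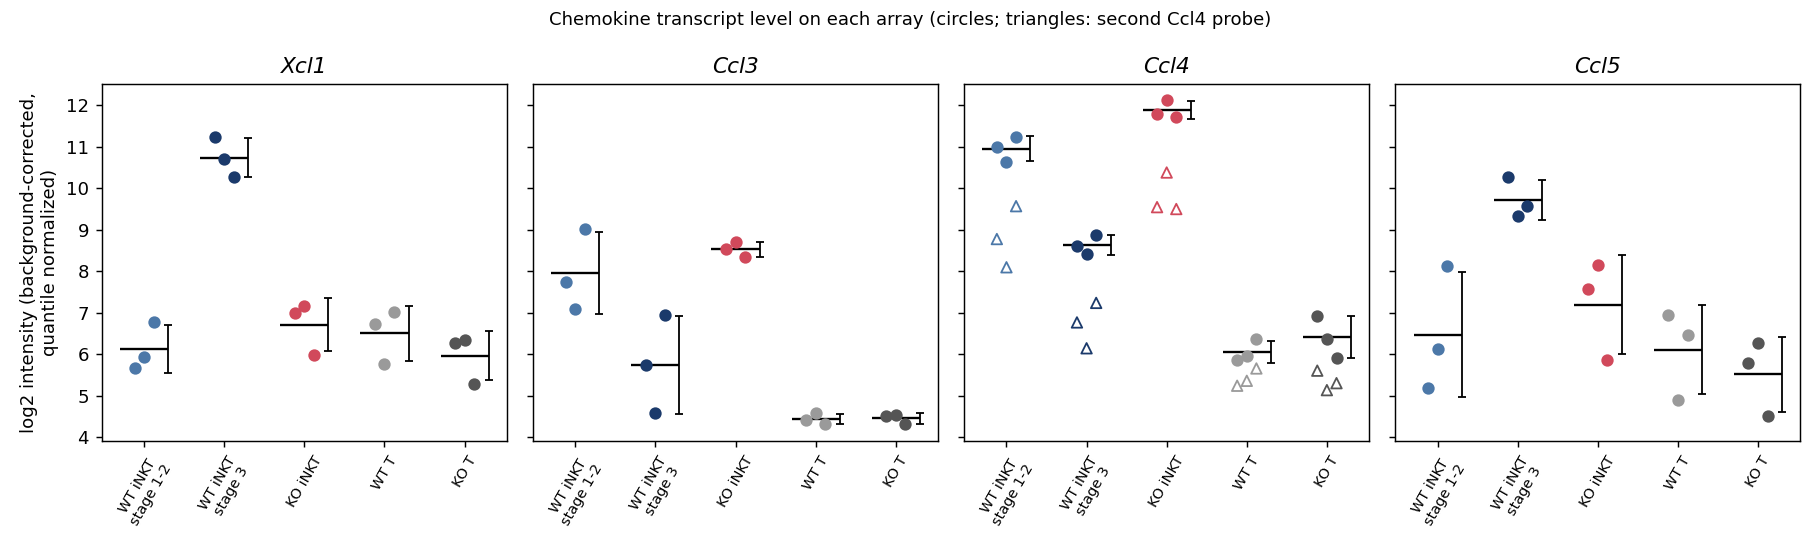
Log2 intensity (y axis) of Xcl1, Ccl3, Ccl4 and Ccl5 on each array, by group (x axis). Circles are arrays, horizontal bars are group means, vertical bars are 1 SD (n = 3) and open triangles are the dimmer Ccl4 probe; Xcl1 and Ccl5 stand out in WT stage 3 cells (means 10.74 and 9.72), whereas Ccl3 and Ccl4 are highest in KO iNKT cells (8.53 and 11.88).

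In the contrast on which the genes were chosen, KO iNKT minus WT stage 3, Xcl1 differed by -4.02 and Ccl5 by -2.53 on the log2 scale, and Ccl3 by 2.78 and Ccl4 by 3.25. For none of the 4 genes did the 2 groups overlap. Among all 6838 genes tested 29.9% passed in either direction at an adjusted p under 0.05, and nothing is read from the chemokine values against that background. Loss of Dicer and stage cannot be told apart in this contrast, because the KO cells were not sorted by stage.

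Between the 2 sorted stages of WT iNKT cells the 4 genes divided into a rising and a falling pair. From stage 1-2 to stage 3, Xcl1 rose 24.4-fold (4.61 ± 0.40 on the log2 scale, SE, with 3 arrays per group; limma adjusted p = 8.26e-07) and Ccl5 rose 9.5-fold (3.25 ± 0.69, adjusted p = 0.0031). Ccl4 fell 5.0-fold (-2.32 ± 0.26, limma adjusted p = 8.9e-06) and Ccl3 fell 4.61-fold (-2.21 ± 0.46, limma adjusted p = 0.00273). In each gene the 3 arrays of one stage lay beyond the 3 of the other. With single arrays left out the Ccl5 difference ran from 2.61 without stage 1-2 replicate 1 (limma adjusted p = 0.0209) to 4.05 without stage 1-2 replicate 3. That of Ccl3 ran from -2.79 without stage 3 replicate 3 to -1.64 without stage 1-2 replicate 3 and -1.63 without stage 3 replicate 2, and both genes passed each time. The dimmer Ccl4 probe fell by 2.10 ± 0.34 (limma over 8906 probes, adjusted p = 0.00039). Among all genes tested 9.11% rose and 11.0% fell, against 2 rising and 2 falling of the 4. The stage 3 arrays also belong to the choosing contrast, so this comparison is not independent of how the genes were picked. Several marker lists of other cells were also higher on the stage 1-2 arrays, as given below. Whether such cells supplied part of these differences was not tested. Scaling each array to its median instead of quantile normalizing left the directions as they were but ended the calls for Ccl3, Ccl4 and Ccl5 (limma adjusted p = 0.389, 0.113 and 0.429), and without background correction the differences were 3.54 for Xcl1, 2.32 for Ccl5 and -1.26 for Ccl3, all still called.

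KO iNKT cells were then set against WT stage 1-2 cells, a contrast that the choice of genes did not use, although it shares the KO arrays with it. Loss of Dicer and stage cannot be told apart here either, because the KO cells were not sorted by stage. No member passed the test. Ccl4 came nearest, 0.93 ± 0.26 higher in KO iNKT cells on the log2 scale (1.90-fold, 95% interval 0.39 to 1.47, limma adjusted p = 0.0596), with all 3 KO arrays above all 3 stage 1-2 arrays. Xcl1 differed by 0.59 ± 0.40 (interval -0.26 to 1.44, limma adjusted p = 0.464) and Ccl3 by 0.57 ± 0.46 (interval -0.41 to 1.55, limma adjusted p = 0.557). Ccl5 differed by 0.72 ± 0.69 (interval -0.74 to 2.19, limma adjusted p = 0.638). The intervals of Xcl1, Ccl3 and Ccl5 reach beyond a 2-fold difference. In data simulated for this contrast 64% of genes changed 2-fold and 96% of genes changed 3-fold were recovered. Among all genes 1.96% were higher and 1.05% lower. The Ccl4 call changed with the processing. It was missed in 12 of 17 alternatives, among them median scaling (0.45, limma adjusted p = 0.72), the dimmer Ccl4 probe (0.99, adjusted p = 0.117) and a fit of only these groups (adjusted p = 0.14). It passed in the authors' normalized table (0.90, limma adjusted p = 0.00887), without background correction (0.90, adjusted p = 0.00918), with a mean-dependent robust variance (adjusted p = 0.03), with array weights (1.00, adjusted p = 0.0268) and without stage 1-2 replicate 3 (1.08, adjusted p = 0.0385). Median scaling turned the other differences to -0.16 for Xcl1, -0.09 for Ccl3 and -0.22 for Ccl5, with the median of all genes at -0.43.

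Conventional thymic T cells served as the reference for each iNKT group. Several marker lists of other cells were also higher in WT stage 1-2 and KO iNKT cells than in T cells, as given below. Whether such cells supplied part of the differences was not tested. WT stage 1-2 cells had 29.7-fold more Ccl4 than WT T cells (log2 difference 4.89 ± 0.26, SE, n = 3 per group; limma adjusted p = 2.09e-09). Ccl3 was at least 8.01-fold higher in them (limma adjusted p = 2.76e-05), a lower bound because no T cell array detected it and the detection limit was used in its place; the fitted difference was 3.51 ± 0.46, and 2.90 without stage 1-2 replicate 3. Without background correction the differences were 3.79 for Ccl4 and 1.79 for Ccl3, in the table normalized by the authors they were 3.73 and 1.74, and on the dimmer Ccl4 probe 3.39, all still called. Xcl1 (-0.38 ± 0.40, limma adjusted p = 0.545) and Ccl5 (0.37 ± 0.69, adjusted p = 0.75) did not pass. Of all genes tested 11.5% were higher and 11.9% lower in stage 1-2 than in T cells.

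WT stage 3 cells exceeded WT T cells in Xcl1 by 18.8-fold (4.23 ± 0.40, limma adjusted p = 5.1e-07), in Ccl5 by 12.3-fold (3.62 ± 0.69, adjusted p = 0.00101) and in Ccl4 by 5.94-fold (2.57 ± 0.26, adjusted p = 9.68e-07). Of all genes 10.6% were higher and 12.5% lower. The stage 3 arrays belong to the choosing contrast, so nothing is read from how many of the 4 genes passed here. Without background correction these differences were 3.34 for Xcl1, 2.56 for Ccl5 and 1.68 for Ccl4, in the table normalized by the authors they were 3.30, 2.51 and 1.64, and on the dimmer Ccl4 probe 1.3 (limma adjusted p = 0.0116), all still called. Ccl5 was 3.02 higher without WT T replicate 2. Ccl3 fell just short (1.31 ± 0.46, limma adjusted p = 0.0502), with 1 stage 3 array inside the range of the T cells. Without that array, stage 3 replicate 2, Ccl3 was 1.94 higher and passed (limma adjusted p = 0.00353), and without stage 3 replicate 3 it was 0.71 higher (adjusted p = 0.251). Median scaling ended the calls for Ccl4 and Ccl5 (adjusted p = 0.194 and 0.191) and kept that for Xcl1.

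KO iNKT cells exceeded KO T cells in Ccl4 by 44.5-fold (5.47 ± 0.26, limma adjusted p = 1.32e-10) and in Ccl3 by at least 13.0-fold (adjusted p = 3.55e-06), again against the detection limit. The fitted Ccl3 difference was 4.07, against 2.20 without background correction, 2.13 in the authors' normalized table and 2.64 with median scaling. That of Ccl4 was 4.51, 4.46 and 4.53 under the same settings and 4.46 on its dimmer probe, and all of these were called. The KO iNKT arrays also belong to the choosing contrast. Xcl1 was 0.75 ± 0.40 higher and did not pass (limma adjusted p = 0.163), and median scaling gave -0.08. Ccl5 was 1.68 ± 0.69 higher and did not pass either (limma adjusted p = 0.0733). For both, KO iNKT replicate 3 lay lowest of its group and within the range of the KO T arrays, and without it Ccl5 (2.36, limma adjusted p = 0.0197) and Xcl1 (1.13, adjusted p = 0.0492) passed. Over all genes 15.8% were higher and 17.2% lower in KO iNKT cells.

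Within T cells, no chemokine passed the test between genotypes. KO T minus WT T was -0.54 ± 0.40 for Xcl1 (95% interval -1.39 to 0.31), 0.01 ± 0.46 for Ccl3, which was below detection in both, 0.35 ± 0.26 for Ccl4 (interval -0.19 to 0.89) and -0.59 ± 0.69 for Ccl5 (interval -2.06 to 0.87). The limma adjusted p-values were 0.7, 0.996, 0.699 and 0.867, and 0.146% of all genes passed in either direction. KO iNKT minus WT stage 1-2 was also set against KO T minus WT T. The differences were 1.13 ± 0.57 for Xcl1, 0.56 ± 0.65 for Ccl3, 0.58 ± 0.36 for Ccl4 and 1.31 ± 0.98 for Ccl5. None passed (limma adjusted p = 0.611, 0.855, 0.695 and 0.752), and of all genes 0.175% did. In the iNKT part loss of Dicer and stage cannot be told apart, because the KO cells were not sorted by stage.

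**Figure D2:**
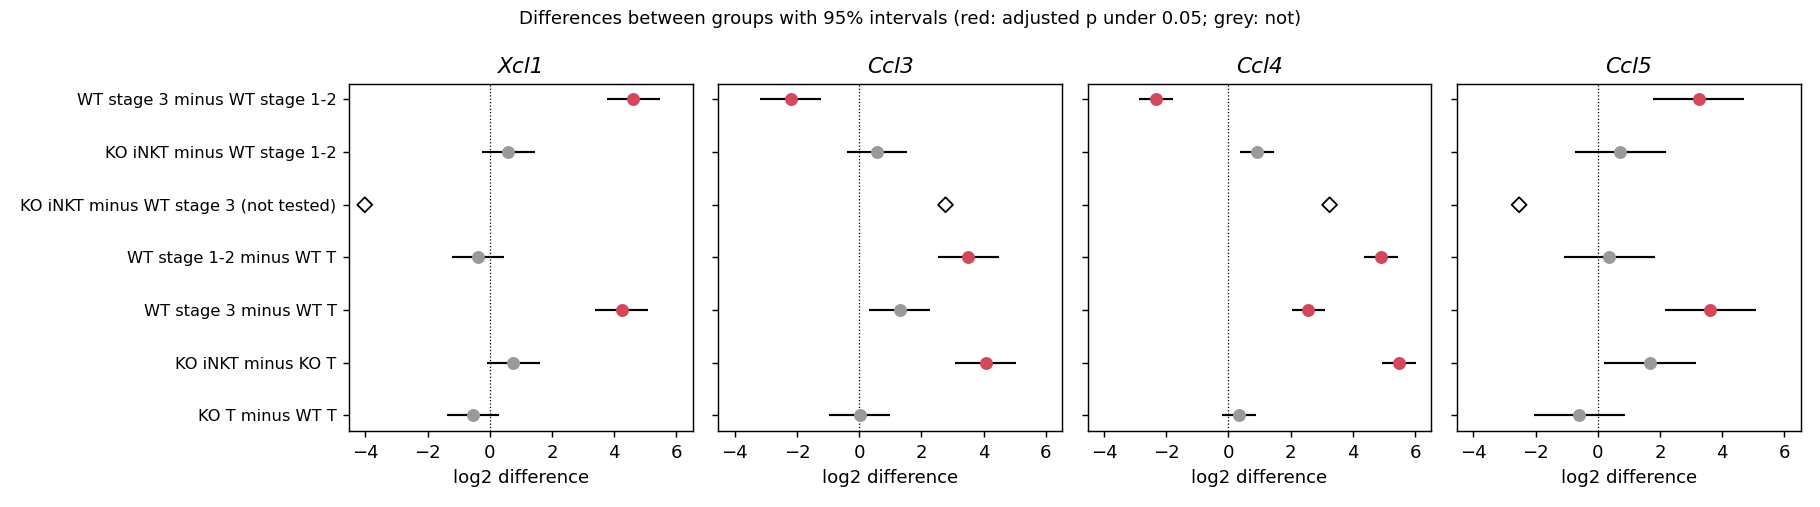
Log2 difference between groups (x axis) for each chemokine gene, one row per comparison, with 95% intervals (limma, 3 arrays per group). Red points passed an adjusted p of 0.05, grey points did not and open diamonds mark the choosing contrast, which was not tested; from stage 1-2 to stage 3 Xcl1 (4.61) and Ccl5 (3.25) lie right of 0 and Ccl3 (-2.21) and Ccl4 (-2.32) left of it.

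Likeness of pattern was measured as the root mean square difference of log2 intensities over the 15 arrays, each gene centred on its own mean, where a small value means a like pattern. Between members it was 0.731 for Xcl1 and Ccl5 and 0.814 for Ccl3 and Ccl4, and 2.20 to 2.94 for the other pairs. The median distance of all tested genes was 1.78 to 2.41, depending on the member. The 4 genes nearest Xcl1 were Klrb1c (0.682), Fasl, the death ligand of cytotoxic lymphocytes (0.686), the Ly49 receptor gene Klra7 (0.691) and the lectin-like receptor gene Klre1 (0.708). All are known from NK cells, and all were high in WT stage 3 cells, where Klre1 reached a mean of 10.09 against 4.40 to 4.54 in the other groups. The genes nearest Ccl5 were Xcl1, Dapk2, a death-associated kinase (0.905), Zcchc18 (0.942) and Lrrk1 (0.954).

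The nearest genes of Ccl3 were Tyrobp, which encodes the signalling adaptor DAP12 of myeloid and NK cells (0.422), the phospholipase gene Plcg2 (0.426), Adssl1 (0.441) and Grn, which encodes progranulin (0.512). Those of Ccl4 were Ctsh, a lysosomal cysteine protease (0.448), Cd74, the MHC class II invariant chain (0.512), the interferon-inducible gene Ifitm2 (0.532) and the MHC class II gene H2-Aa (0.589). Cd74 stood at 11.15 in KO iNKT, 10.26 in stage 1-2, 7.06 in stage 3 and about 5.08 in T cells, the order of Ccl4. Tyrobp stood at 9.42, 8.14, 5.71 and, in WT and KO T cells, 4.40 and 4.48, the order of Ccl3. These distances are a description over 15 arrays that share group differences of many genes.

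**Figure D3:**
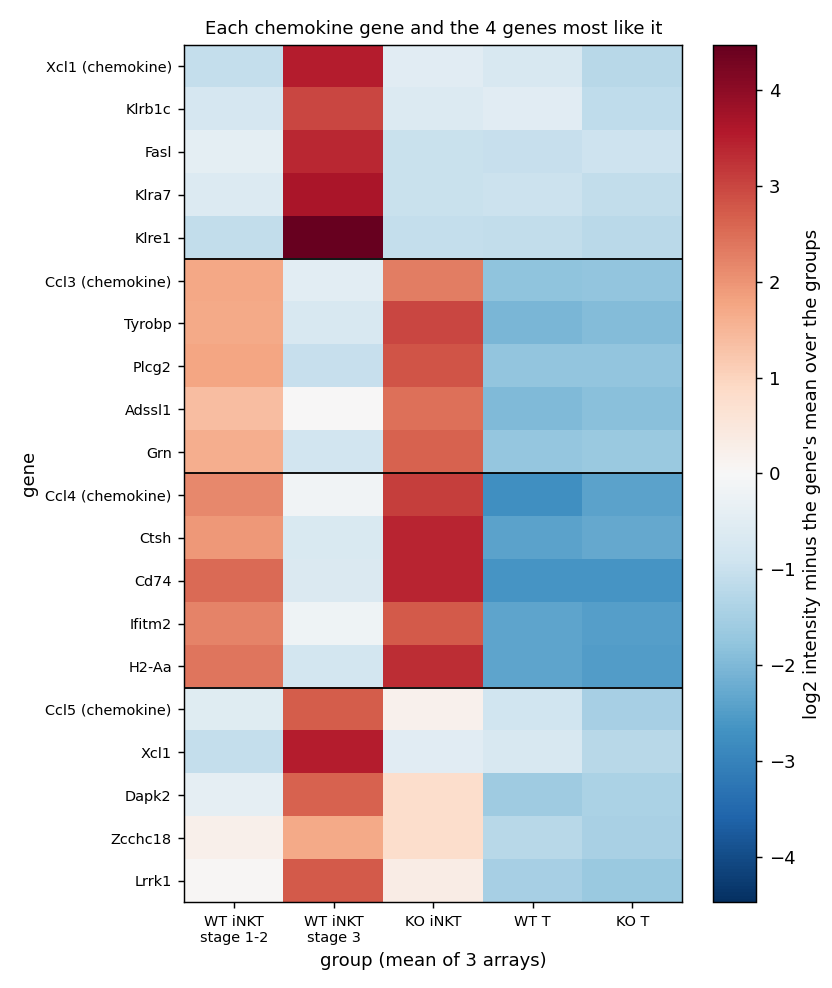
Group mean log2 intensity minus the mean over the 5 groups (colour) for each chemokine gene and its 4 nearest genes (rows) in the 5 groups (columns, 3 arrays each). The rows of Xcl1 and Ccl5 are red in WT stage 3 cells, and those of Ccl3 and Ccl4 in stage 1-2 and KO iNKT cells.

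As lists, markers of neutrophils, plasmacytoid dendritic cells and monocytes and macrophages moved with Ccl3 and Ccl4 among the iNKT groups. The neutrophil list (8 of 9 genes tested) had array means of 9.11 to 10.1 in WT stage 1-2, 5.12 to 6.66 in stage 3, 8.93 to 12.01 in KO iNKT and 4.41 to 4.5 in T cells. The plasmacytoid dendritic cell list (5 of 7 tested) stood at 7.94 to 8.62, 5.51 to 6.72, 8.90 to 9.53 and 5.99 to 6.30 in the same groups. The monocyte and macrophage list (6 of 13 tested) stood at 6.0 to 6.59, 4.92 to 5.28, 6.69 to 7.97 and 4.40 to 4.64. For each of these lists the stage 3 arrays lay below the stage 1-2 and KO iNKT arrays, the order that Ccl3 and Ccl4 also showed. Other lists differed. In WT stage 1-2, stage 3 and KO iNKT cells the γδ T cell list (2 of 4 tested) stood at 7.35 to 7.82, 6.04 to 6.81 and 5.57 to 6.24. The NK cell list (2 of 6 tested, Fcer1g and Tyrobp) stood at 7.69 to 9.54, 6.91 to 8.39 and 9.61 to 10.15. Not every listed gene had that order either. In WT stage 1-2, stage 3 and KO iNKT cells Pacsin1 (plasmacytoid dendritic cell list) stood at 8.20, 8.69 and 8.21. Fcgr3 (monocyte and macrophage list) stood at 6.09, 6.28 and 7.50. From stage 1-2 to stage 3, 6 of 8 neutrophil genes, 4 of 5 plasmacytoid dendritic cell genes, 3 of 6 monocyte and macrophage genes and 4 of 4 conventional dendritic cell genes tested (9 listed) fell (limma, adjusted p under 0.05), against 11.0% of all genes, and none rose. The conventional dendritic cell genes tested were Cd209a, H2-Aa, H2-Ab1 and Cd74. Itgax, Clec9a, Flt3, Zbtb46 and Batf3 of that list did not pass the filter.

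Of the fixed defining markers, S100a8, Lyz2 and Siglech were lowest in stage 3 among the iNKT groups. S100a8, a calcium-binding protein of neutrophils, stood at 13.22 ± 0.38 in WT stage 1-2, 8.13 ± 1.77 in stage 3 and 14.04 ± 1.13 in KO iNKT cells (SD, n = 3). The lysozyme gene Lyz2 stood at 9.54 ± 0.33, 6.19 ± 0.33 and 11.16 ± 1.06, and Siglech, a receptor of plasmacytoid dendritic cells, at 7.21 ± 0.97, 5.16 ± 0.41 and 9.10 ± 0.47. No T cell array detected S100a8 or Lyz2. The NK cell receptor gene Ncr1 was detected on none of the 15 arrays, and Csf1r had no named probe. In these bulk samples a smaller share of a cell type and less RNA per cell cannot be told apart.

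Whether such cells supplied part of the Ccl3 or Ccl4 signal was not tested. On KO iNKT replicates 1, 2 and 3 the neutrophil list stood at 12.01, 11.72 and 8.93 while Ccl4 stood at 11.79, 12.13 and 11.72 and Ccl3 at 8.53, 8.71 and 8.33. The array with the lower neutrophil signal was also the lowest of its group for both genes, and for Xcl1 (5.98) and Ccl5 (5.87). On that array Ccl3 and Ccl4 lay above every stage 3 array, and so did the neutrophil, monocyte and macrophage and plasmacytoid dendritic cell lists. The monocyte and macrophage list of KO iNKT replicate 3 was also the lowest of the group, at 6.69 against 7.97 and 7.91. Its plasmacytoid dendritic cell list, at 9.53, was the highest. Without that array the Ccl4 difference from stage 1-2 cells was 1.00 and that of Ccl3 0.67. In WT stage 1-2 cells the order of the neutrophil list was the other way. On replicates 1, 2 and 3 the neutrophil list stood at 10.09, 9.60 and 9.11. Replicate 3, the lowest there, had the highest Ccl4 (11.24) and Ccl3 (9.02) of its group.

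**Figure D4:**
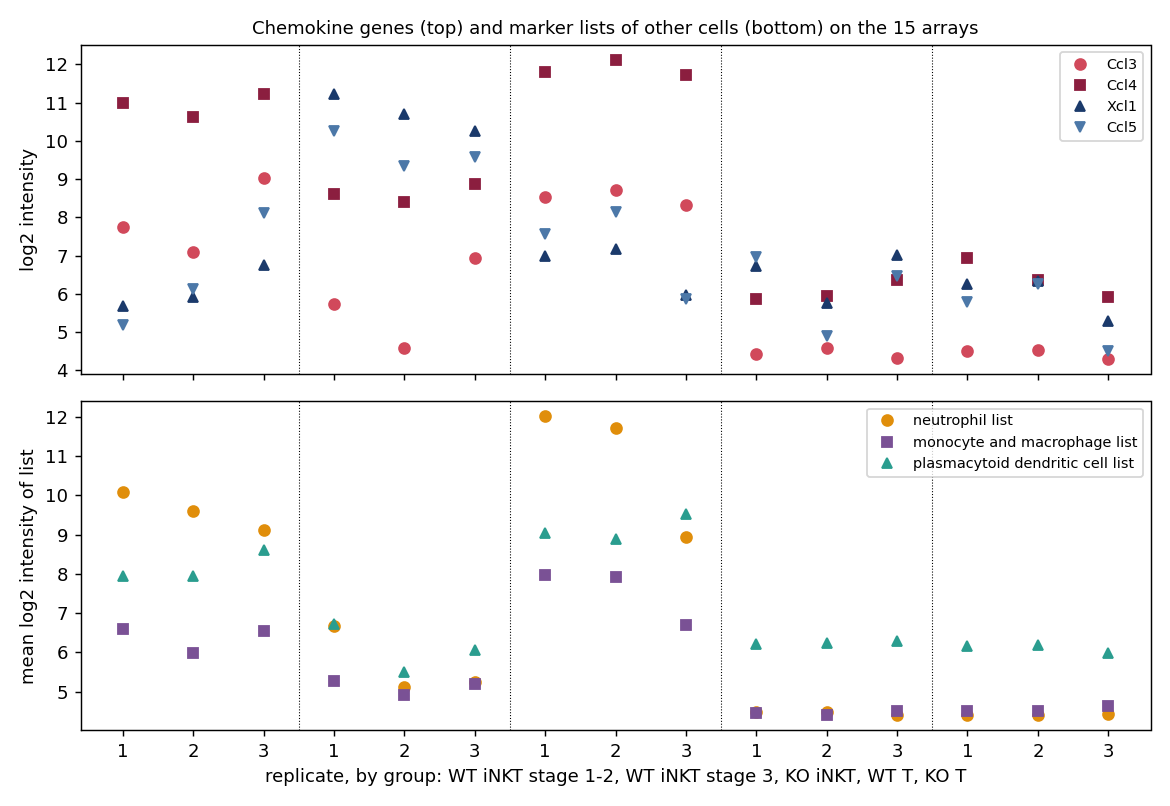
Log2 intensity of the 4 chemokine genes (top, y axis) and mean log2 intensity of marker lists of other cells (bottom, y axis) on each of the 15 arrays (x axis, replicate number within group). Ccl3 and Ccl4 are higher in stage 1-2 and KO iNKT cells, where the marker lists are also higher; on KO iNKT replicate 3 the neutrophil list is at 8.93 and Ccl4 at 11.72.

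Of the receptors of these chemokines, neither Xcr1 nor Ackr2 passed the filter on detection. Xcr1, the receptor of XCL1, was detected on 1 of 15 arrays, a KO iNKT array, and the group means were 4.39 to 4.73. The scavenging receptor gene Ackr2, which removes CC chemokines, was detected on 1 stage 3 and 2 WT T arrays.

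Of 34 other chemokine genes, all on the array, 5 passed the filter. Ccl9, between Ccl5 and Ccl3 on chromosome 11, stood at 7.15 ± 0.66 in KO iNKT and 6.03 ± 0.86 in WT stage 1-2 cells and was detected on no stage 3 or T cell array. It was at least 1.97-fold lower in stage 3 than in stage 1-2 cells (limma adjusted p = 0.00308). It was the only one of the 5 to change there, where 11.0% of all genes fell. Ccl6, between Ccl9 and Ccl3, was detected on 1 of 15 arrays. Cxcl2, a ligand that recruits neutrophils through CXCR2, stood at 5.78 ± 0.15 in KO iNKT cells and was detected in no other group. It passed the filter only through the KO iNKT arrays. Its difference from stage 1-2 cells, at least 1.81-fold, is therefore given as a description. Cxcl10, a ligand of CXCR3, was at least 2.00-fold higher in stage 3 cells than in WT T cells (limma adjusted p = 0.00131). It was at least 1.33-fold higher in stage 1-2 than in WT T cells (adjusted p = 0.0284). It too passed the filter only through the KO iNKT arrays, where it lay at least 1.74-fold above KO T cells, a description only. Ccl25 and Ccl27a passed in none of these contrasts. In KO iNKT cells 3 of the 5, Ccl9, Cxcl2 and Cxcl10, were called higher than in KO T cells, against 15.8% of all genes. No KO T array detected any of them. Because Cxcl2 and Cxcl10 passed the filter only through the KO iNKT arrays, nothing is read from this count.

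Effector cytokines that iNKT cells secrete beside chemokines were measurable for 6 of 18 genes. From stage 1-2 to stage 3, 3 rose and 1 fell. The interferon gene Ifng rose by 3.23 ± 0.39, Ltb by 1.2 ± 0.20 and Tnf by 1.02 ± 0.26. Il4, the early iNKT cytokine, fell by 1.46 ± 0.34 (limma adjusted p = 0.00653). Ifng passed the filter only through the stage 3 arrays, so its rise is a description, although it is among the 3 counted. The median of the 6 was 0.58, against 0.00 over all genes, of which 9.11% rose and 11.0% fell. In KO iNKT cells against stage 1-2 cells Il4 fell by 1.46 ± 0.34 (limma adjusted p = 0.0269) and the other 5 did not pass. Of all genes 1.05% were lower there. Ifng stood at 5.07 in KO iNKT, 5.29 in stage 1-2 and 8.52 in stage 3 cells, the same order of stage 3 over the others as Xcl1 and Ccl5.

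Of 22 transcription factors with a known part in chemokine or effector gene control, 15 were tested, and 9 rose and 2 fell from stage 1-2 to stage 3 (median 0.72), against 9.11% of all genes rising and 11.0% falling. Tbx21, the T-box factor of type 1 lymphocytes, rose by 2.33 ± 0.21, from a mean of 4.90, detected on 1 stage 1-2 array, to 7.23. It passed the filter only through the stage 3 arrays, so its difference is a description, although the count of rising genes includes it. Stat4, which transmits IL-12 signals, rose by 2.31 ± 0.32 (limma adjusted p = 6.67e-05) and Bhlhe40, a cofactor of interferon-γ production, by 2.04 ± 0.27 (adjusted p = 5.71e-05). Runx1 fell by 1.17 ± 0.26 (limma adjusted p = 0.00463). In KO iNKT against stage 1-2 cells 1 of the 15 passed, Irf8, a factor of myeloid and dendritic cells, which rose by 1.26 ± 0.31 (limma adjusted p = 0.0343). Of all genes 1.96% were higher and 1.05% lower there. Tbx21 stood at 4.76 in KO iNKT cells, and the comparison with stage 1-2 did not pass (-0.13 ± 0.21, limma adjusted p = 0.793). It was 2.47 ± 0.21 lower than in stage 3 cells, again a description only.

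Chemokine mRNAs are short-lived and are induced within minutes to hours of receptor signals, so decay factors and immediate early genes were described beside them. Of 10 mRNA decay genes 8 were tested. Zfp36, whose protein (tristetraprolin) binds AU-rich elements and speeds decay of cytokine mRNAs, rose by 0.69 ± 0.22 from stage 1-2 to stage 3 (limma adjusted p = 0.0347) and was 1.2 ± 0.22 higher in KO iNKT than in stage 1-2 cells (adjusted p = 0.0068). It was the only one of the 8 that passed in either contrast, where 9.11% and 1.96% of all genes were higher. Of 15 immediate early and activation genes tested (17 listed), 6 rose and 1 fell from stage 1-2 to stage 3 (median 0.66), where 9.11% and 11.0% of all genes did. Among them were the AP-1 gene Junb (2.07 ± 0.22, limma adjusted p = 6.81e-06), the phosphatase gene Dusp1 (2.39 ± 0.27) and the nuclear receptor gene Nr4a3 (1.48 ± 0.21). Nr4a3 passed the filter only through the stage 3 arrays, so its difference is a description, although it is among the 6 counted. Ier3, a stress-induced gene, fell by 2.05 ± 0.29 (limma adjusted p = 8.28e-05), the direction of Ccl3 and Ccl4. In KO iNKT against stage 1-2 cells 1 of 15 passed, the activation marker gene Cd69, which rose by 1.72 ± 0.24 (limma adjusted p = 0.0011). There 1.96% of all genes were higher and 1.05% lower.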

How the data were processed

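RNA from 15 sorted thymic samples was hybridised to Illumina bead arrays. A non-normalized table of probe intensity (linear signal) with a detection p-value per probe and array was deposited by the authors, beside a second intensity table they had normalized; per the submitters' processing notes the tool was GenomeStudio. Probes were named through the platform annotation, with symbols updated by gene identifier: 23978 of 25697 probes had 1 symbol and 1719 had none. The neqc function corrected the background, quantile normalized the signals and took log2 (limma 3.58.1, R 4.3.3, offset 16). Probes with a detection p under 0.05 on every array of a group were kept, and the brightest kept probe stood for its gene, giving 6838 genes. A limma model with group means over 15 arrays (10 residual degrees of freedom) was followed by eBayes, two-sided, with Benjamini-Hochberg adjustment over all genes within a contrast. The 3 arrays per group limit the precision. A lower bound was set against the detection limit where a group had no detected array.

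The members, gene lists, contrasts and alternatives were chosen with earlier results of these data known. Named genes were the members, up to 4 passing genes of each list with the smallest adjusted p, fixed defining markers of other cells and the 4 genes nearest each member. Arrays of equal replicate number in different groups correlated above 0.1 in 3 of 30 cases (-0.233 to 0.481), so the replicate numbers were not taken to pair the arrays. The fit was tested on simulated data with 6838 genes, in which 13 of 6638 unchanged genes were called for KO iNKT against stage 1-2. Figures were drawn with matplotlib 3.10.9 (Python 3.11.15). Sequences come from RefSeq. Some genes of the fixed lists are not reported here.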

Additional observations from a re-analysis of the deposited data

How the results depend on the processing

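Each difference was recomputed under other normalizations, detection filters, probes and model settings and with each array left out. Of 532 recomputed member differences 508 kept their direction and side of the threshold or moved by less than the spread between arrays, 7 lost a call, 13 gained one, 4 untested values moved further and 0 called values reversed. Xcl1 kept its calls in stage 3 against stage 1-2 (3.49 to 4.92) and against WT T cells under every alternative. From stage 1-2 to stage 3, median scaling gave -1.73 for Ccl3, -2.62 for Ccl4 and 2.33 for Ccl5, none called, and scaling over probes detected on every array, an alternative chosen after seeing the data, gave -1.46 for Ccl3 (limma adjusted p = 0.0657). Median scaling also ended calls against WT T cells: Ccl3 in stage 1-2 (2.74), and Ccl4 (1.94) and Ccl5 (2.81) in stage 3. It shifted the median of all genes by -0.43 in KO iNKT minus stage 1-2 and by -0.20 in stage 3 minus stage 1-2; the cause of the lost calls was not tested.

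KO iNKT minus stage 1-2 Ccl4 was called with quantile normalization without background correction (0.90), in the authors' table (0.90), with trend and robust eBayes (0.93) and with array weights (1.00), and lay at 0.76 to 1.08 with an array left out. Stage 3 minus WT T Ccl3 was called at a detection p under 0.01 (1.31), with the replicate block (1.31, limma adjusted p = 0.042) and with array weights (1.46), and lay at 0.71 to 1.94 with an array left out. The block changed no other member call. KO iNKT minus KO T Ccl5 was called with only those groups fitted (1.68) and with array weights (1.71), and lay at 1.18 to 2.36 with an array left out; Xcl1 lay at 0.41 to 1.13. KO iNKT minus stage 3 moved to -3.23 and -3.19 for Xcl1 and to 3.01 and 2.99 for Ccl4, without background correction and in the authors' table. The number of all genes called in KO iNKT against stage 1-2 ranged from 0 to 553 across settings and from 71 to 461 with an array left out, and in stage 3 against stage 1-2 from 19 to 1643 and from 1005 to 1275. The slide as a block was not run, because the files used here give no slide. Signal near background limits Ccl3 in T and stage 3 cells and Ccl5 in T and stage 1-2 cells.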
